A study of Mus musculus with 17 samples.

Results

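Ubiquitin-conjugating enzymes (E2s) were described in the skeletal muscle of diabetic mice with and without bezafibrate (BEZ), a lipid-lowering fibrate drug that activates peroxisome proliferator-activated receptors. The genes were chosen by name: every gene with a symbol starting with Ube2 and a probe set assigned to that gene alone was taken. This gave 35 of 19938 measured genes. The 17 arrays, called biological replicates in the labels, came from wildtype male C57BL/6N mice aged 5 to 6 months, which had been injected at 10 to 16 weeks of age. The STZ, BEZ group (n = 5) had received 65 mg/kg streptozotocin (STZ), a toxin of insulin-producing beta cells, on 5 days, and then BEZ in the chow for 8 weeks, begun 2 weeks after STZ. The STZ, SD group (n = 5) had the same STZ injections and the standard diet (SD), and the Con, SD group (n = 7) was mock-injected with citrate buffer and fed the standard diet. The labels give 0.25% or 0.5% BEZ by weight without saying which mouse ate which, and the methods of the study describe a different STZ dose, a single BEZ strength and untreated controls. The labels name the tissue as skeletal muscle, without naming the muscle.

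Ubiquitin is a small protein that is attached to other proteins as a label. An E1 enzyme activates it, an E2 carries it on its catalytic cysteine, and an E3 ligase brings the loaded E2 to the substrate. The E2 often decides how ubiquitins are joined into chains: K48 chains, named after the lysine used, mark proteins for the proteasome, and K63 chains serve in signalling and DNA repair. Related E2s carry ubiquitin-like proteins such as NEDD8 and ISG15. In skeletal muscle this cascade is known for the breakdown of contractile proteins in wasting states, including diabetes, with the ligases Trim63 (MuRF1) and Fbxo32 (atrogin-1).

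All expression values below are log2 values, so that a difference of 1 is a change to double or to 0.5 of the level. Levels of different genes were not set against each other, since each probe set responds in its own way. Differences were tested with limma over all 19938 genes, and a gene was called higher or lower at a Benjamini-Hochberg adjusted p under 0.1. The mean level of 9 defining genes of skeletal muscle, such as Acta1 and Ckm, was 12.80 to 13.00 on the STZ, BEZ arrays, 12.44 to 13.02 on the STZ, SD arrays and 12.53 to 13.00 on the Con, SD arrays. Of these 9 genes 1 was called lower in STZ, SD than in Con, SD, against 11.9% of all genes. It was Mb, with a difference of -0.75 ± 0.16 (SE). Myh7 was not called and varied widely, at 8.71 to 10.55 in STZ, BEZ, 6.65 to 10.01 in STZ, SD and 6.50 to 9.46 in Con, SD. Arrays correlated with others of their group at 0.993 to 0.995 (STZ, BEZ), 0.988 to 0.996 (STZ, SD) and 0.959 to 0.995 (Con, SD). Con, SD array 1 stood apart, with a mean level of 11.82 for 12 hepatocyte genes and of 7.79 for 14 testis germ cell genes, against at most 9.78 and 5.41 on the other 16 arrays. In STZ, SD against Con, SD 5 of 9 endothelial markers and 2 of 7 satellite cell markers were called higher, against 13.9% of all genes. Endothelial markers had mean levels of 8.90 to 9.01 (STZ, BEZ), 8.78 to 9.03 (STZ, SD) and 8.61 to 8.79 (Con, SD). Satellite cell markers stood at 7.17 to 7.26 (STZ, BEZ), 7.16 to 7.28 (STZ, SD) and 6.93 to 7.15 (Con, SD). The part of these cell types in the results below was not tested, and in whole muscle fewer cells of a type and less RNA per cell cannot be told apart.

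The first comparison asked how the E2 genes stood in untreated diabetic muscle. In STZ, SD against Con, SD, 11 of the 35 genes (31.4%) were called, against 25.8% of all genes, so that the share among E2s was near that of all genes. An unadjusted p under 0.05 was found for 12 of the 35, against 32.2% of all genes. Of the 11 genes, 9 fell, against 11.9% of all genes called lower, and 2 rose, against 13.9% called higher. The median difference of the 35 genes was -0.07, against -0.01 over all genes, and 26 of the 35 differences were negative. All called differences were small on the linear scale. The largest was that of Ube2n, which was 1.58-fold lower, and the smallest among the genes that fell was that of Ube2k, which was 1.15-fold lower. In 3 genes (Ube2v1, Ube2l3 and Ube2c) the arrays of both groups did not overlap, which was the case for 8.30% of all genes.

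The 3 measured genes of K63 chain formation were called lower in STZ, SD against Con, SD on the probe sets used, where 11.9% of all genes were called lower. For Ube2v1 and Ube2v2 another probe set did not fall, with differences of 0.19 and 0.05, neither of them called. Ube2n (Ubc13) is the E2 that builds these chains, and Ube2v1 (Uev1a) and Ube2v2 (Mms2) are its partners, which lack a catalytic cysteine and hold the acceptor ubiquitin in place. Ube2v1 had the smallest adjusted p of the 35 genes. Its value was 10.43, 10.44, 10.54, 10.48 and 10.40 on the STZ, BEZ arrays, and 10.48, 10.42, 10.38, 10.55 and 10.56 on the STZ, SD arrays. On the Con, SD arrays it had a lowest value of 10.86, a median of 11.00 and a highest value of 11.05. All 10 arrays of STZ mice were thus below all 7 arrays of control mice, with a wide gap between them, whether or not BEZ had been given. Ube2v1 fell by 0.51 ± 0.05 (SE) in STZ, SD against Con, SD, or 1.43-fold (adjusted p = 5.2e-06, limma).

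Ube2n itself varied more from mouse to mouse. Its value was 8.58, 8.46, 8.61, 9.08 and 8.77 on the STZ, BEZ arrays, and 9.23, 7.96, 8.51, 8.68 and 8.63 on the STZ, SD arrays. The Con, SD arrays had a lowest value of 8.94, a median of 9.23 and a highest value of 9.81. STZ, SD array 1 lay within the control range, while the other 4 STZ, SD arrays were below every control array. Ube2n fell by 0.66 ± 0.17 (SE) in STZ, SD against Con, SD (adjusted p = 0.0132, limma). Ube2v2, singled out here after its values were seen because it completes the trio, was at 8.91, 8.94, 9.04, 9.36 and 9.05 in STZ, BEZ and at 9.22, 8.59, 8.92, 8.96 and 8.78 in STZ, SD. In Con, SD it had a lowest value of 9.02, a median of 9.17 and a highest value of 9.64. Again STZ, SD array 1 overlapped with the controls and the other 4 did not. Ube2v2 fell by 0.37 ± 0.11 (SE) in STZ, SD against Con, SD (adjusted p = 0.0314, limma). The same arrays carried the extremes of both genes: STZ, SD array 2 was lowest and Con, SD array 3 highest for Ube2n and for Ube2v2. The call of Ube2v2 was lost without STZ, SD array 2, where its difference was -0.29, and without Con, SD arrays 1, 3 and 4, where it was -0.25. The mean hepatocyte level was 11.82, 9.20 and 7.38 on these 3 control arrays, so that they did not share a high level. Con, SD array 2, which was kept, stood at 9.78, so that this subset does not sort the controls by that level. Leaving out arrays 1, 3 and 4 also left fewer controls, which by itself lowers the precision.

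**Figure D1:**
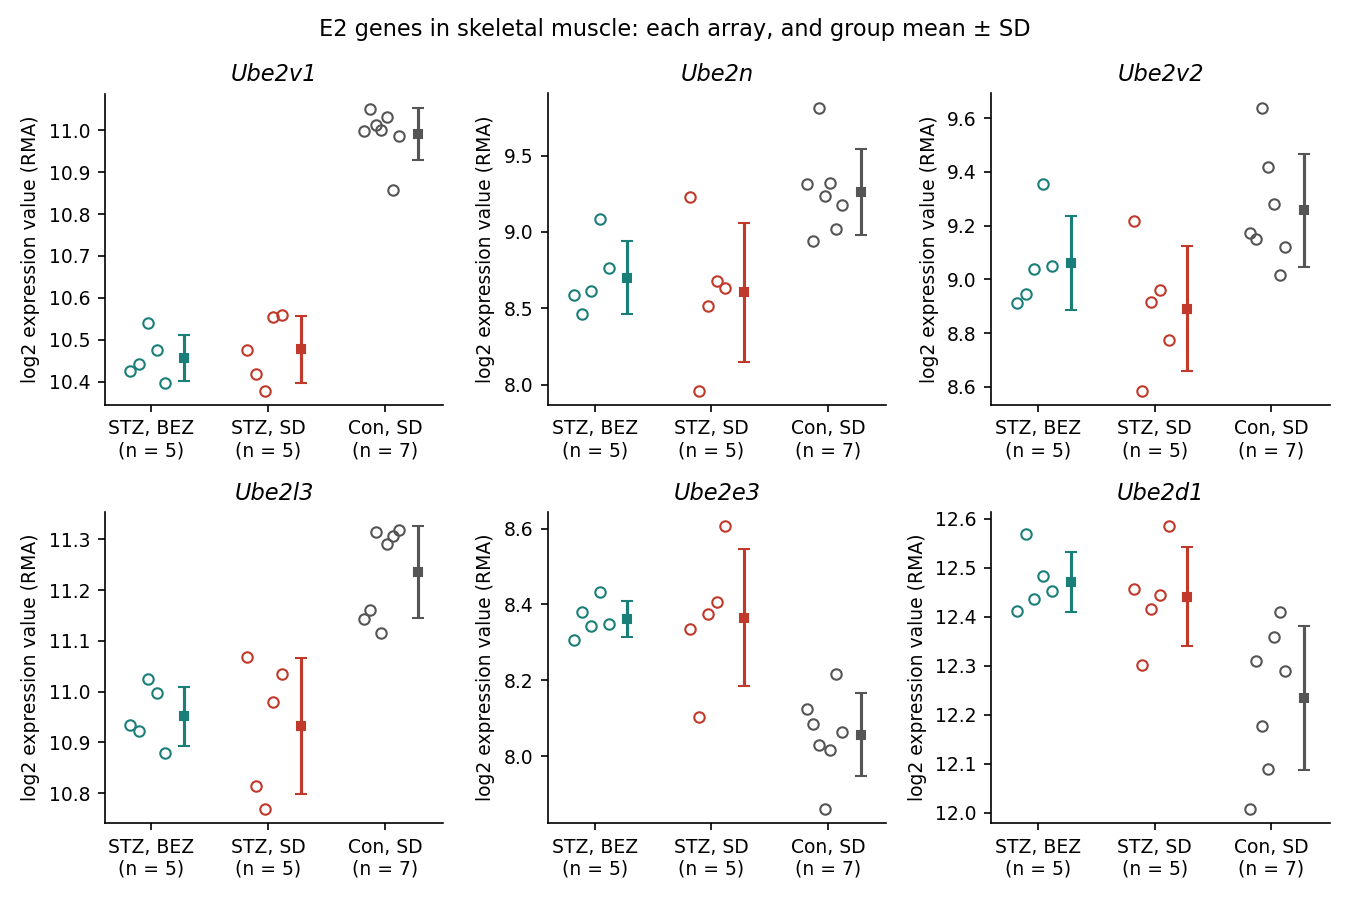
Log2 expression value (vertical axes, each with its own range that does not start at 0) of 6 E2 genes with 1 open circle per array, and with means and SDs (filled squares and bars), for STZ, BEZ, STZ, SD and Con, SD. Ube2v1 was at or below 10.56 on all 10 arrays of STZ mice and at or above 10.86 on all 7 control arrays, while Ube2n and Ube2v2 overlapped between the groups.

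To show what lies before the start of the 3 genes that fell with the smallest adjusted p, and of 1 gene that rose, the 250 bases upstream of the annotated start were taken from RefSeq (GRCm38.p6) for Ube2v1 (chr2:167632006-167632255, minus strand), Ube2n (chr10:95514912-95515161, plus strand), Ube2l3 (chr16:17201493-17201742, minus strand) and Ube2d1 (chr10:71285263-71285512, minus strand). They run 5′ to 3′ on the gene's own strand. Capitals mark 3 motifs, searched on both strands. The GC box, read by Sp factors, was searched as GGGCGG. The core of the sites of ETS factors was searched as CCGGAAG, and the TATA box as TATAAA.
Ube2v1: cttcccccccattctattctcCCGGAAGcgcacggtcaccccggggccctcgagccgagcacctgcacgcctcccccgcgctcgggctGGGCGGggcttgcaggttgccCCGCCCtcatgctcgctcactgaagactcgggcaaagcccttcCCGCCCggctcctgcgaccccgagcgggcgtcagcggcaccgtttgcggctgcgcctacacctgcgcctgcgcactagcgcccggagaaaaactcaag
Ube2n: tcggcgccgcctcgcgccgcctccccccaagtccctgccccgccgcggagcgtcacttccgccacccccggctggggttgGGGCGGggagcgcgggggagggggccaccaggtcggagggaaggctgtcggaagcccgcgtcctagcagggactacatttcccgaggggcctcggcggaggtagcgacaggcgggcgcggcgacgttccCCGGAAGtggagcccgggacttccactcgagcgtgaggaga
Ube2l3: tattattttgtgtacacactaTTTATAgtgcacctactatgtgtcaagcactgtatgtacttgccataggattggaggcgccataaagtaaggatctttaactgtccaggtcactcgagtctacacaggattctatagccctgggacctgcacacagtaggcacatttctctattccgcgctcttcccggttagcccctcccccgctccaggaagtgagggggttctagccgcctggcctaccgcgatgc
Ube2d1: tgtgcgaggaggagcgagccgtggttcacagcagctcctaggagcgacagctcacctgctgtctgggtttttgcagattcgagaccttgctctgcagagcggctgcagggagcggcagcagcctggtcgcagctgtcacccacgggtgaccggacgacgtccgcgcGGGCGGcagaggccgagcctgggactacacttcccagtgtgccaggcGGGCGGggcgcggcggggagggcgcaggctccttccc

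The Ube2v1 sequence held 3 GC boxes and 1 ETS core, and that of Ube2n 1 GC box and 1 ETS core. The Ube2d1 sequence, of a gene that rose, held 2 GC boxes. The Ube2l3 sequence had only a TATA box among these motifs, and its GC content was 50.8%, against 70.8% for Ube2v1, 74.8% for Ube2n and 69.2% for Ube2d1. Of the 35 genes, 29 had such a sequence, with a median GC content of 70.4% against 52.8% over all genes. A GC box was in the promoter of 21 of the 29 genes, against 35.4% of all 27025 genes in the table (32.7% of its 32851 promoters). An ETS core was in 7 of the 29 (7.83% of genes, 6.91% of promoters) and a TATA box in 4 (14.3% of genes, 12.4% of promoters). TGTTTAC, the element bound by the FoxO factors that drive Trim63 and Fbxo32, was in 1 of the 29, that of Ube2h, and in 3.54% of genes and 3.17% of promoters. A match is a run of letters and does not show that a factor binds there.

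Several E2 genes have near-identical processed copies elsewhere in the mouse genome, and the sources used here do not say which copy a probe set reads. The array has more than 1 probe set for 9 of the 35 genes. For Ube2n both probe sets fell, by 0.66 and 0.65. For Ube2v1 the probe set used fell by 0.51 and a second one by 0.60, while the remaining one, with a mean of only 4.27 in STZ, SD and 4.08 in Con, SD, differed by 0.19 in the other direction (adjusted p = 0.408, limma over 21789 probe sets). Ube2v2 and Ube2l3 each had 2 probe sets that fell and 1 that was not called, with a difference of 0.05 in either gene. The pair of probe sets of Ube2h and that of Ube2s fell together. Calls for Ube2v1, Ube2v2 and Ube2l3 therefore do not rest on all of their probe sets. With the probe sets of a gene averaged, the difference in STZ, SD against Con, SD was -0.31 for Ube2v1, -0.22 for Ube2v2 and -0.19 for Ube2l3, and all 3 stayed called.

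**Figure D2:**
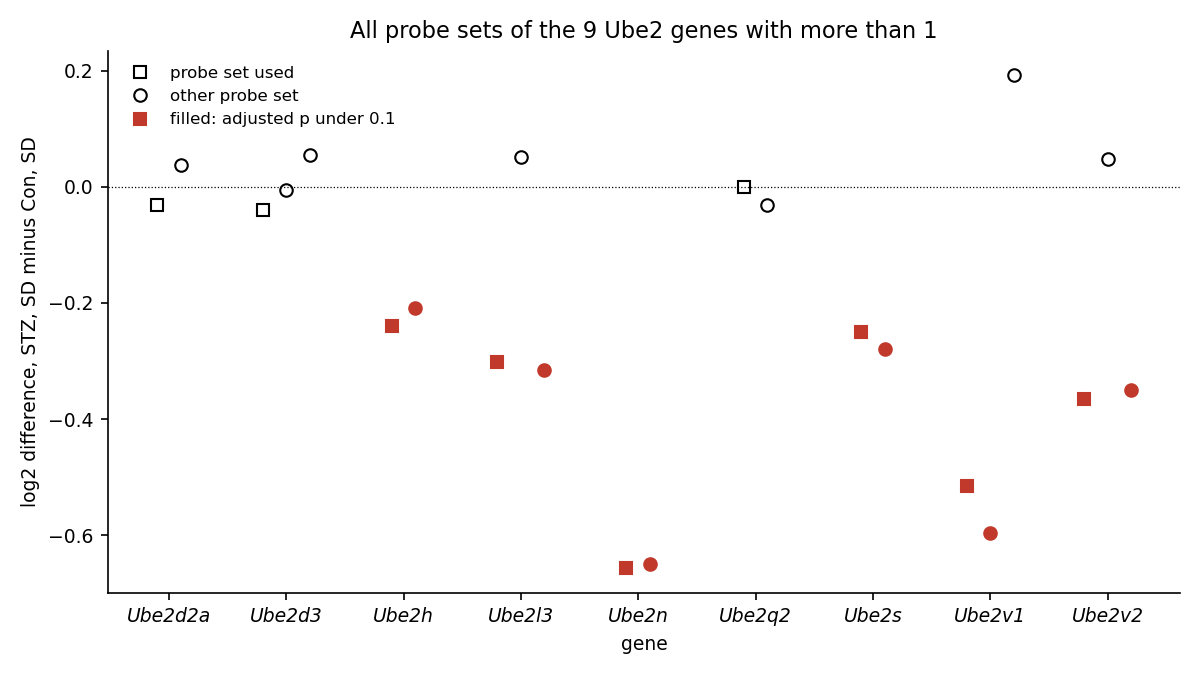
Log2 difference, STZ, SD minus Con, SD (vertical axis), of every probe set of the 9 E2 genes with more than 1 (horizontal axis). Squares are the probe sets used and circles the others, filled in red where called; both Ube2n probe sets lie near -0.65, while Ube2v1, Ube2v2 and Ube2l3 each have 1 open circle above 0.

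Ube2l3 (UbcH7) serves ligases that take over the ubiquitin on their own cysteine, such as parkin. Among the other E2s that fell, Ube2l3 was the clearest on the probe set used. It was at 10.93, 10.92, 11.02, 11.00 and 10.88 on the STZ, BEZ arrays and at 11.07, 10.81, 10.77, 10.98 and 11.04 on the STZ, SD arrays. On the Con, SD arrays its lowest value was 11.12, its median 11.29 and its highest 11.32. No array of either STZ group reached the control range on this probe set. Another Ube2l3 probe set fell by 0.31 in STZ, SD against Con, SD, while the remaining one differed by 0.05 and was not called. Ube2l3 fell by 0.30 ± 0.06 (SE) in STZ, SD against Con, SD (adjusted p = 0.0028, limma).

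Ube2o, a large protein that acts as E2 and E3 in one and clears excess ribosomal and globin proteins in red cell precursors, was at 7.93, 7.96, 8.18, 7.95 and 7.93 in STZ, BEZ and at 7.93, 7.80, 7.77, 8.04 and 7.71 in STZ, SD. In Con, SD its lowest value was 7.98, its median 8.09 and its highest 8.19. Of the STZ, SD arrays only array 4 reached the control range, and of the STZ, BEZ arrays only array 3. Ube2o fell by 0.24 ± 0.07 (SE) in STZ, SD against Con, SD (adjusted p = 0.0149, limma).

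Ube2h, the E2 of the CTLH ligase complex, fell by 0.24 ± 0.08 (SE; adjusted p = 0.0472, limma). Its extremes were on the same arrays as those of Ube2n and Ube2v2: 9.23 on STZ, SD array 2 and 10.00 on Con, SD array 3. The call was lost without STZ, SD array 2 (-0.16), without STZ, SD array 3 (-0.23) and without Con, SD arrays 1, 3 and 4 (-0.20).

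Of the E2s of the cell cycle and DNA repair, 2 of 3 fell, where 11.9% of all genes were called lower. Ube2c and Ube2s work with the anaphase-promoting complex, where Ube2c starts chains and Ube2s lengthens them. Ube2s fell by 0.25 ± 0.07 (SE; adjusted p = 0.0208, limma) and Ube2c by 0.21 ± 0.08 (SE; adjusted p = 0.0684, limma) in STZ, SD against Con, SD. The Ube2c values lay between 6.78 and 7.03 in STZ, SD, against 7.07 and 7.18 in Con, SD, without overlap. The call was lost in 8 of the other settings and subsets tried, among them without STZ, SD arrays 2, 3 or 5 or Con, SD array 3, left out singly (-0.20 to -0.17). Ube2t, the E2 of the Fanconi anaemia pathway, differed by -0.09 ± 0.07 (SE; adjusted p = 0.425, limma). Beside these genes, 3 of 11 proliferation markers (Top2a, Bub1 and Plk1) were called lower in STZ, SD, and the mean level of the list was 5.24 to 5.62 in STZ, BEZ, 5.42 to 5.52 in STZ, SD and 5.50 to 5.76 in Con, SD. The part of dividing cells in the Ube2c and Ube2s values was not tested.

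Of the E2s that make K48 chains or serve cullin ligases, 1 of 3 fell, where 11.9% of all genes were called lower. It was Ube2k (E2-25K), which joins ubiquitins into K48 chains without needing a ligase in vitro. Ube2k was called lower, by 0.20 ± 0.08 (SE; adjusted p = 0.0748, limma). This call was lost in 12 of the other settings and subsets tried, among them without STZ, SD arrays 2 or 3 or Con, SD arrays 1, 2, 3, 4 or 5, left out singly (-0.20 to -0.16), and without Con, SD arrays 1, 3 and 4 together (-0.12). Ube2g1 and Ube2r2, which extend K48 chains on cullin ligase substrates, differed by -0.05 and 0.05 and were not called.

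The genes that rose were both of the Ube2d and Ube2e families, E2s that work with a broad range of RING-type ligases and often place the first ubiquitin. Ube2e3 was at 8.31, 8.38, 8.34, 8.43 and 8.35 on the STZ, BEZ arrays, and at 8.33, 8.10, 8.38, 8.41 and 8.61 on the STZ, SD arrays. On the Con, SD arrays its lowest value was 7.86, its median 8.06 and its highest 8.22. Every STZ, BEZ array and 4 of 5 STZ, SD arrays were above all controls, and STZ, SD array 2 was within their range. Ube2e3 rose by 0.31 ± 0.07 (SE) in STZ, SD against Con, SD, or 1.24-fold (adjusted p = 0.0068, limma).

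Ube2d1 (UbcH5a) was at 12.41, 12.57, 12.44, 12.48 and 12.45 in STZ, BEZ and at 12.46, 12.30, 12.42, 12.44 and 12.58 in STZ, SD. In Con, SD its lowest value was 12.01, its median 12.29 and its highest 12.41. It rose by 0.21 ± 0.07 (SE) in STZ, SD against Con, SD (adjusted p = 0.0478, limma). The lowest control value was that of array 1, the array with the high hepatocyte level. With that level as a covariate the difference was 0.17 and without Con, SD arrays 1, 3 and 4 it was 0.10, and in neither case was it called. It was also not called without STZ, SD array 5 (0.17).

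The other 5 measured genes of these families were not called. Ube2d2a and Ube2d3 differed by -0.03 and -0.04, Ube2e1 by -0.13 and Ube2e2 by -0.18. Ube2d2b, a copy of Ube2d2a known from testis, differed by -0.55 with a standard error of 0.35. Its control values held a single high one, 7.26 on array 1, with 4.81 the next, and that array also had the high testis gene level of 7.79.

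**Figure D3:**
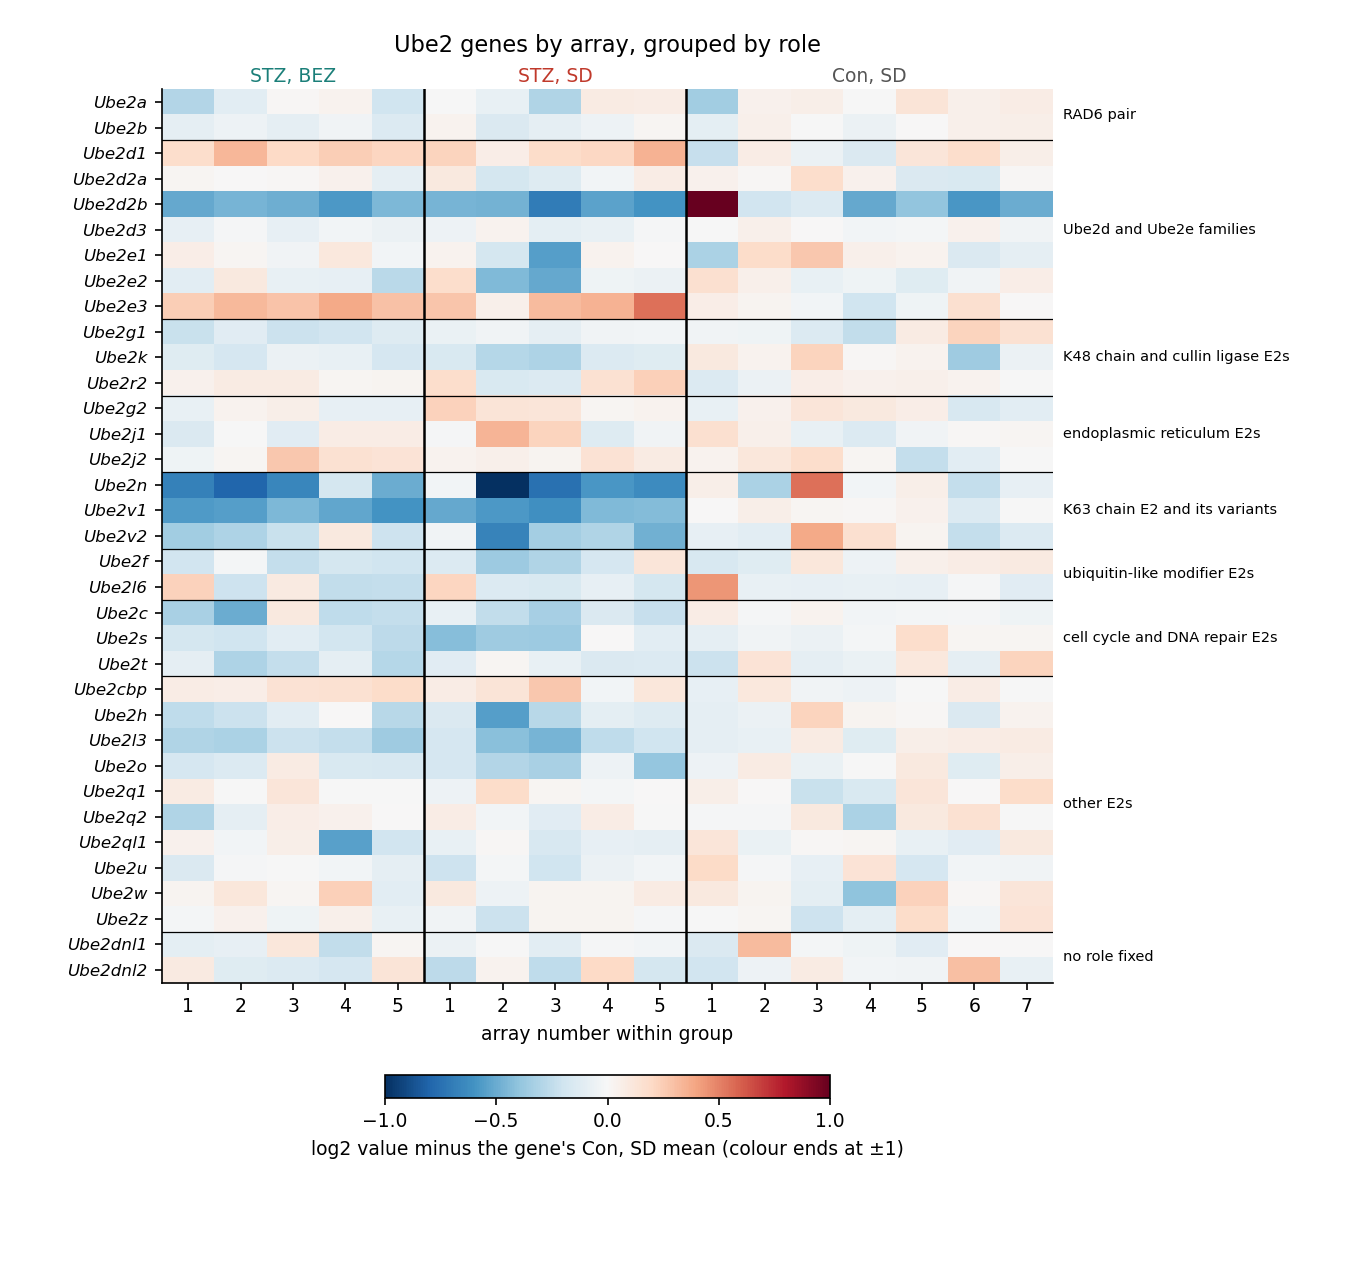
Log2 value minus the mean of the 7 Con, SD arrays of the same gene (colour, ending at -1 and 1) for the 35 E2 genes (rows, by role) on the 17 arrays (columns, by group). The Ube2n, Ube2v1 and Ube2v2 rows are blue over nearly all STZ, BEZ and STZ, SD arrays, the Ube2d1 and Ube2e3 rows are red there, and Ube2n on STZ, SD array 2 and Ube2d2b on Con, SD array 1 lie beyond the colour range.

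Several E2s with a known part in muscle or stress responses were not called. Ube2b (the E2 14-kDa enzyme), which works with the N-degron ligase Ubr2 and with Rnf20 on histone H2B and has long been followed in muscle wasting, was at 12.11, 12.15, 12.11, 12.16 and 12.06 in STZ, BEZ and at 12.23, 12.05, 12.11, 12.15 and 12.22 in STZ, SD. In Con, SD its lowest value was 12.10, its median 12.20 and its highest 12.25. The groups overlapped, and the difference between STZ, SD and Con, SD was -0.05 ± 0.05 (SE; 95% confidence interval -0.15 to 0.06, limma). Its paralogue Ube2a differed by -0.04.

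Ube2l6, the E2 for ISG15, is switched on by interferon. It was at 7.80, 7.36, 7.66, 7.32 and 7.32 in STZ, BEZ and at 7.78, 7.43, 7.42, 7.48 and 7.39 in STZ, SD. In Con, SD its lowest value was 7.45, its median 7.49 and its highest 8.01. A single array stood out in STZ, SD and in Con, SD. STZ, SD array 1, at 7.78, also had the highest mean level of 10 interferon-stimulated genes, 6.35, while Con, SD array 1, at 8.01, had 6.12 within a control range of 6.01 to 6.20. Of these 10 genes 3 were called higher and 1 lower in STZ, SD against Con, SD, where 13.9% and 11.9% of all genes were. In STZ, BEZ against STZ, SD none of the 10 was called. An unadjusted p under 0.05 (limma) was found there for 5 of them, all lower, against 5.69% of all genes. Ube2l6 was not called, with a difference of -0.07 ± 0.11 (SE) in STZ, SD against Con, SD. Ube2f, which passes NEDD8 to a cullin, differed by -0.17 ± 0.08 (SE; adjusted p = 0.137, limma). Ube2m, an E2 for NEDD8, was not analysed here.

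The 3 E2s of protein disposal at the endoplasmic reticulum, Ube2g2, Ube2j1 and Ube2j2, had positive differences between 0.07 and 0.11, none of them called. Ube2cbp is in the list by its symbol but codes for an E2-binding protein with ligase activity. It was at 7.14, 7.13, 7.21, 7.22 and 7.25 in STZ, BEZ and at 7.14, 7.19, 7.34, 7.04 and 7.17 in STZ, SD. In Con, SD its lowest value was 6.98, its median 7.06 and its highest 7.17. The ranges overlapped, and the difference of 0.11 ± 0.06 (SE) in STZ, SD against Con, SD was not called (adjusted p = 0.172, limma). The remaining 8 genes (Ube2q1, Ube2q2, Ube2ql1, Ube2u, Ube2w, Ube2z, Ube2dnl1 and Ube2dnl2) had differences between -0.10 and 0.04 and were not called.

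The second comparison asked what BEZ did to the E2 genes in diabetic muscle. None of the 35 genes was called in STZ, BEZ against STZ, SD by limma, and 0.0201% of all genes were called. None had an unadjusted p under 0.05 either, against 5.69% of all genes. SAM, the method of the study, was rerun here on the probe sets used, so that its counts need not match those of the study. It called none of the 35, and 9 of all genes. The differences ran from -0.13 (Ube2g2) to 0.17 (Ube2v2), with a median of 0.01 against 0.00 over all genes. The 95% confidence interval included 0 for each of the 35 genes and lay within 0.3 on either side of 0, a change of 1.23-fold, for 30 of them. A change of that size was thus outside the interval for most E2s, while for the gene with the widest interval, Ube2d2b, the limits were -0.74 and 0.85.

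The genes with the smallest p in this comparison were Ube2g2, Ube2o and Ube2g1. Ube2g2, which serves ligases of the endoplasmic reticulum, was at 9.36, 9.47, 9.49, 9.35 and 9.35 in STZ, BEZ and at 9.66, 9.56, 9.55, 9.45 and 9.47 in STZ, SD. In Con, SD its lowest value was 9.28, its median 9.48 and its highest 9.56. The difference between STZ, BEZ and STZ, SD was -0.13 ± 0.07 (SE; adjusted p = 0.888, limma). The STZ, BEZ values all lay within the control range.

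For Ube2o, with the values given above, it was 0.14 ± 0.07 (SE; adjusted p = 0.911, limma), and STZ, BEZ array 3 was the highest of its group at 8.18. Ube2g1 was at 10.42, 10.54, 10.43, 10.45 and 10.52 in STZ, BEZ and at 10.58, 10.61, 10.56, 10.61 and 10.62 in STZ, SD. Its lowest value in Con, SD was 10.40, its median 10.62 and its highest 10.87. All 5 STZ, BEZ values were below all 5 STZ, SD values. A lack of overlap between these groups, in either direction, was found for 1 of the 35 genes and for 1.16% of all genes. The difference was -0.12 ± 0.07 (SE; adjusted p = 0.933, limma), and the control arrays covered both ranges.

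For the genes that were called between STZ, SD and Con, SD, the differences between STZ, BEZ and STZ, SD lay between -0.04 (Ube2c) and 0.17 (Ube2v2), and none was called. They were -0.02 ± 0.05 (SE) for Ube2v1, 0.10 ± 0.19 for Ube2n, 0.17 ± 0.12 for Ube2v2, 0.02 for Ube2l3, 0.00 for Ube2e3 and 0.03 for Ube2d1. The interval for Ube2v1 was -0.14 to 0.10, and that for Ube2n was -0.30 to 0.49.

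**Figure D4:**
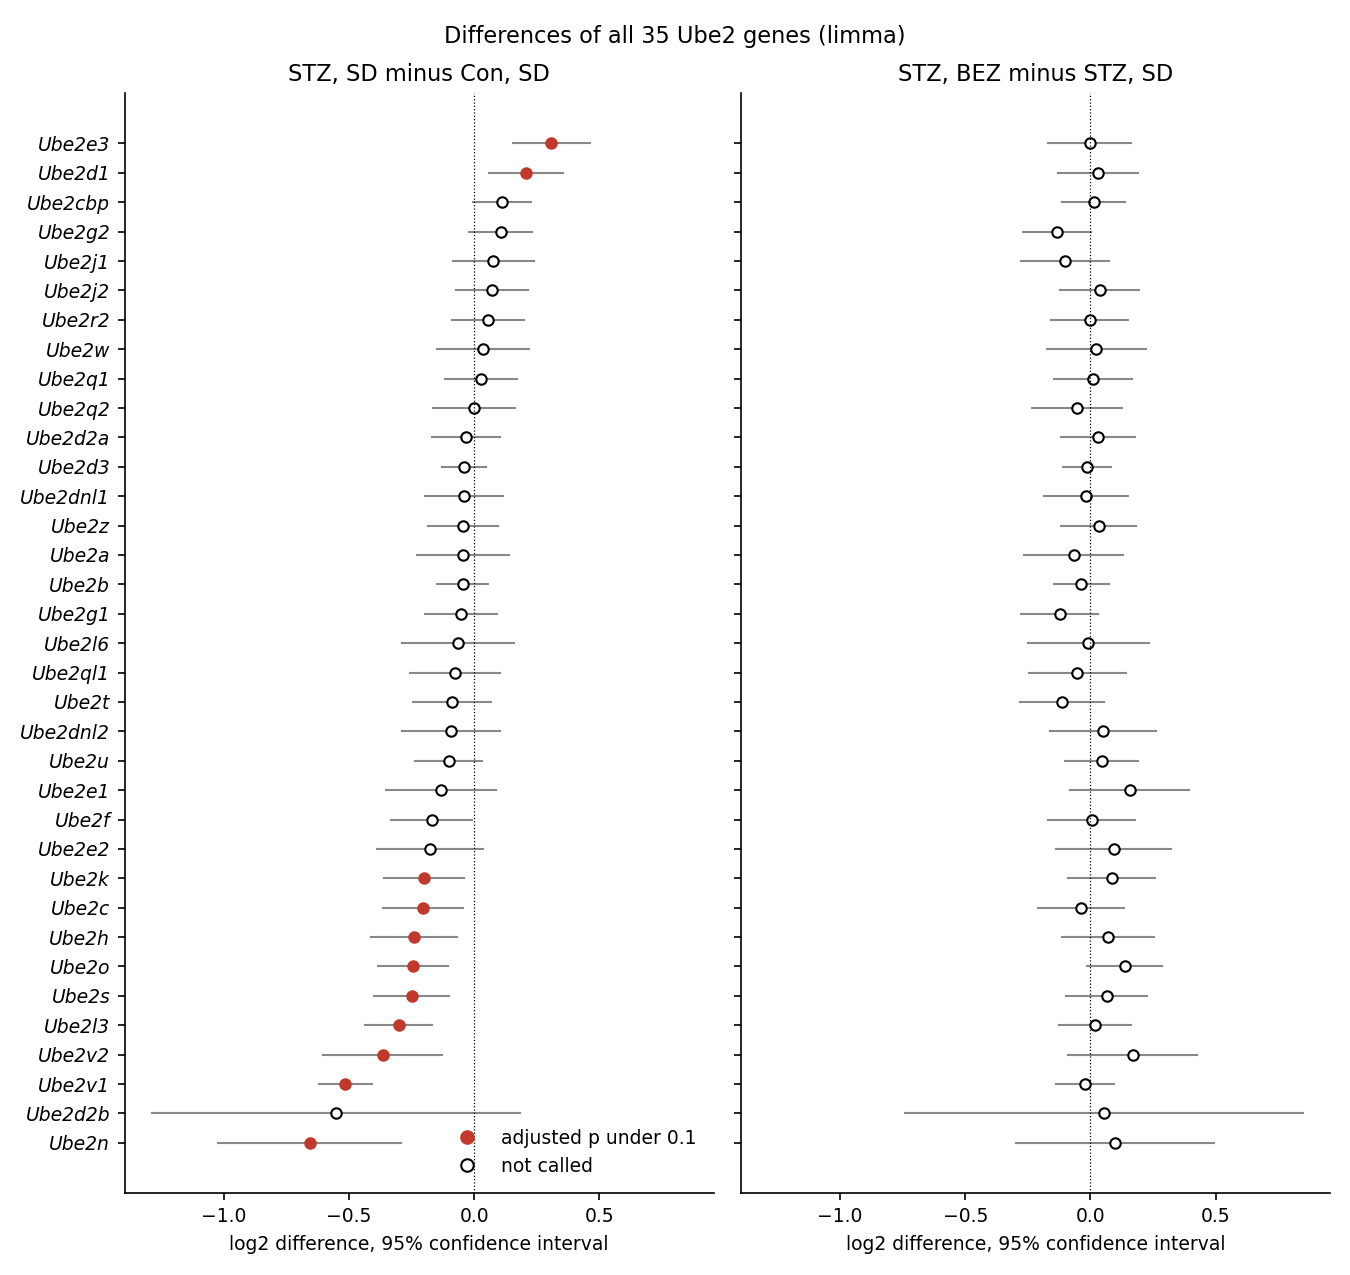
Log2 difference with its 95% confidence interval (horizontal axes) for the 35 E2 genes (rows, ordered by the left panel), for STZ, SD minus Con, SD on the left and STZ, BEZ minus STZ, SD on the right. Red points are called at an adjusted p under 0.1: 11 on the left, from -0.66 (Ube2n) to 0.31 (Ube2e3), and 0 on the right, where all intervals include 0.

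The third comparison set BEZ-treated diabetic muscle against control muscle. It shares the STZ, BEZ arrays and the Con, SD arrays with the comparisons above, so that its calls are not independent of theirs. Of 12 hepatocyte markers 8 were called lower here, against 8.45% of all genes, with mean levels of 7.32 to 8.00 in STZ, BEZ and 7.38 to 11.82 in Con, SD. In STZ, BEZ against Con, SD, 9 of the 35 genes (25.7%) were called, against 21.6% of all genes, and 11 had an unadjusted p under 0.05, against 29.6% of all genes. Of the called genes, 2 rose (13.1% of all genes) and 7 fell (8.45% of all genes). Ube2v1 fell by 0.54 ± 0.05 (SE; adjusted p = 4.0e-06, limma), Ube2n by 0.56 ± 0.17 (SE) and Ube2l3 by 0.28 ± 0.06 (SE). Ube2v2 differed by -0.20 ± 0.11 (SE) and was not called (adjusted p = 0.257, limma). Another Ube2v2 probe set went the other way in this comparison, with a difference of 0.22 (adjusted p = 0.0771, limma over 21789 probe sets). The Ube2n call was lost without STZ, BEZ array 2 (-0.50) and without Con, SD arrays 1, 3 and 4 (-0.41). With probe sets averaged, the Ube2v1 difference was -0.27 and called, and the Ube2l3 call was lost (-0.14).

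Ube2e3 rose by 0.31 ± 0.07 (SE) and Ube2d1 by 0.24 ± 0.07 (SE) in STZ, BEZ against Con, SD, and for both genes all 5 STZ, BEZ values were above all 7 control values. Together with Ube2v1, Ube2l3 and Ube2s these were 5 genes without overlap, against 8.51% of all genes. The Ube2d1 call was lost without Con, SD arrays 1, 3 and 4 (0.13) and with the hepatocyte covariate (0.17). Smaller changes were called for Ube2c, which fell by 0.24 ± 0.08 (SE), Ube2t, by 0.20 ± 0.07 (SE), Ube2s, by 0.18 ± 0.07 (SE), and Ube2g1, by 0.18 ± 0.07 (SE). The last 3 had adjusted p values from 0.0725 to 0.0938 (limma) and lost the call in 10 or more of the other settings and subsets tried. With arrays left out singly, the Ube2t call was lost without STZ, BEZ arrays 2, 3 or 5 or Con, SD arrays 2, 5 or 7 (-0.19 to -0.17). The Ube2s call was lost without any 1 of STZ, BEZ arrays 1, 2, 4 or 5 or Con, SD arrays 2 to 7 (-0.20 to -0.16). The Ube2g1 call was lost without any 1 array of either STZ group or Con, SD arrays 2, 5, 6 or 7 (-0.19 to -0.14), and its difference was -0.28 without Con, SD arrays 1, 3 and 4. The Ube2c call was lost without STZ, BEZ array 2 (-0.18), without Con, SD arrays 1, 3 and 4 (-0.22) and with the hepatocyte covariate (-0.22).

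The steps before and after the E2s were read from lists of known pathway genes. Their called shares stand against the 25.8% of all genes in STZ, SD against Con, SD. Of the E1 enzymes, 6 of 9 were measured and 3 called. Sae1, a subunit of the E1 for SUMO, fell by 0.48 ± 0.08 (SE) in STZ, SD against Con, SD, Uba3, the catalytic subunit of the E1 for NEDD8, fell by 0.23 ± 0.08 (SE), and Uba7, the E1 for ISG15, rose by 0.17 ± 0.07 (SE). The other 3, which include Uba6, an E1 for ubiquitin itself, were not called. Of the modifiers, 5 of 11 were measured: Sumo2 fell by 0.22, Ufm1 fell by 0.23 and Sumo3 rose by 0.23. Apart from Sae1 and Sumo2 these calls were lost in subsets. With arrays left out singly, Uba3 lost its call without STZ, SD arrays 2, 3 or 4 or Con, SD array 3 (-0.21 to -0.17). Uba7 lost it without STZ, SD arrays 2, 3 or 5 or Con, SD arrays 1, 2, 3 or 4 (0.14 to 0.18). Ufm1 lost it without STZ, SD arrays 2 or 3 (-0.20 to -0.16), and Sumo3 without STZ, SD array 5 (0.18). Without Con, SD arrays 1, 3 and 4 Uba3 (-0.23), Uba7 (0.08) and Ufm1 (-0.21) were not called.

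Among 7 E2s that do not carry a Ube2 symbol, Ufc1 had the largest difference. Ufc1, the E2 for UFM1, averaged 9.23 ± 0.16 in STZ, BEZ (SD, n = 5), 9.04 ± 0.24 in STZ, SD (SD, n = 5) and 9.67 ± 0.26 in Con, SD (SD, n = 7), and fell by 0.63 ± 0.12 (SE) in STZ, SD against Con, SD. Atg10, the E2-like enzyme for Atg12 in autophagy, fell by 0.29 ± 0.10 (SE), and Birc6, a giant enzyme with E2 and E3 activity, rose by 0.15 ± 0.05 (SE). Atg10 lost its call without STZ, SD arrays 2 or 3 (-0.25 to -0.23), and Birc6 without Con, SD arrays 1, 3 and 4 (0.11).

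Of the E3 partners, 24 of 28 were measured, and 5 rose and 1 fell in STZ, SD against Con, SD. The one that fell was Rbx1, the RING subunit that docks the E2 on cullin ligases: it averaged 9.18 ± 0.14 in STZ, BEZ (SD, n = 5), 8.99 ± 0.19 in STZ, SD (SD, n = 5) and 9.64 ± 0.15 in Con, SD (SD, n = 7). Of these 24 genes 25% were called, against 25.8% of all genes. Trim63 rose by 0.58 ± 0.18 (SE), of which STZ, SD array 2 carried a large share: it was at 11.31 and the other 4 STZ, SD arrays between 10.11 and 10.48, and without it the difference was 0.37, still called. Rnf20 rose by 0.34 ± 0.06 (SE), Huwe1 by 0.32 ± 0.05 (SE), Syvn1 by 0.32 ± 0.07 (SE) and Cul1 by 0.24 ± 0.07 (SE). Fbxo32 differed by 0.54 ± 0.23 (SE) and was not called. Without STZ, SD array 2, at 12.43 the highest for Fbxo32 too, its difference was 0.27 and not called. It was called in 6 other subsets, without STZ, SD arrays 1, 4 or 5 or Con, SD arrays 3 or 4, left out singly (0.61 to 0.68), and without Con, SD arrays 1, 3 and 4 (0.68). Cul1 was not called without Con, SD arrays 1, 3 and 4 (0.20). In these 4 lists no gene was called in STZ, BEZ against STZ, SD by limma.

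In STZ, BEZ against Con, SD, where 21.6% of all genes were called, 4 of the 6 E1s, 2 of the 5 modifiers, 1 of the 7 E2s without a Ube2 symbol and 7 of the 24 E3 partners (29.2%) were called. Of the E3 partners 6 rose, where 13.1% of all genes were called higher. Rnf20 rose by 0.41, Syvn1 by 0.33 and Huwe1 by 0.31, and Rbx1 fell by 0.46 and Sumo2 by 0.17. These 5 calls were kept with each array left out, without Con, SD arrays 1, 3 and 4 and with the hepatocyte covariate. The others (Uba3, Uba6, Uba7, Sae1, Sumo3, Ufc1, Ubr2, Cul1 and Dcun1d1) lost the call in at least 1 of these settings. Trim63 differed by 0.14 ± 0.18 (SE) between STZ, BEZ and Con, SD and was not called.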

How the data were processed

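Total RNA of skeletal muscle was hybridised to 17 Affymetrix arrays. The deposited values are log2 expression values, which the authors obtained by RMA in Affymetrix Expression Console 1.2; scan dates, batches and background flags were not given in the sources used here. Of 35556 probe sets, 21789 carried a single gene symbol in the platform annotation, 1621 several and 12146 none. The probe set with the highest mean over the 17 arrays stood for each of 19938 genes, without further scaling or filter; 4 probe sets that pair a Ube2 symbol with another gene were left out. All groups were fitted together in limma 3.58.1 (R 4.3.3) with Benjamini-Hochberg adjustment over all genes, checked on simulated data. The number of arrays limits the precision.

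The E2 genes and all lists were chosen with earlier results of these data known. Values by array, for Con, SD as lowest, median and highest, are given for the 3 genes with the smallest adjusted p in each direction of STZ, SD against Con, SD, for the 3 with the smallest p in STZ, BEZ against STZ, SD, for the 2 with the smallest adjusted p in each direction of STZ, BEZ against Con, SD, and for Ube2b and Ube2l6; Ube2v2 was added. Every called E2 gene is named, and of each pathway list the called genes, at most 6. No 2 arrays held identical values. Marker lists also covered macrophages, adipocytes, smooth muscle and erythroid cells. In STZ, SD against Con, SD 0 of 8, 2 of 7, 1 of 7 and 1 of 3 of their measured genes were called, against 25.8% of all genes. Of the 2 adipocyte genes 1 was called higher and 1 lower. Promoters came from RefSeq. Alternatives were SAM (100 permutations, q under 0.1), other scalings, a filter on the 30% dimmest genes, other uses of probe sets, single comparisons, array weights, a replicate block, a hepatocyte covariate and the removal of arrays; the settings for pathway genes were chosen after seeing the data.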

Additional observations from a re-analysis of the deposited data

Results flagged for a closer look

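In 105 sets of values, 1 for each E2 gene and group, 11 held a highest or lowest array that stood apart from the rest of its group by Dixon's criterion. Chance gives about 1 in 20 such sets, and the values are given without an explanation. In STZ, BEZ, array 2 was high for Ube2f, at 7.36 with 7.20 next, and array 3 was high for Ube2o, at 8.18 with 7.96 next. In STZ, SD, array 1 was high for Ube2l6, at 7.78 with 7.48 next, and array 2 was low for Ube2z, at 8.57 with 8.75 next. In Con, SD, array 1 stood apart in 3 genes: it was low for Ube2a, at 8.17 with 8.51 next, high for Ube2d2b, at 7.26 with 4.81 next, and high for Ube2l6, at 8.01 with 7.55 next. The other Con, SD arrays concerned were array 2 for Ube2dnl1 (4.33, with 4.02 next), array 4 for Ube2q2 (low, 9.16, with 9.45 next), array 5 for Ube2s (9.68, with 9.52 next) and array 6 for Ube2v1 (low, 10.86, with 10.99 next).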

How the results depend on the processing

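In STZ, SD against Con, SD, the count of E2 genes called higher was 2, and 1 without Con, SD arrays 1, 3 and 4 or with the hepatocyte level as a covariate; the count called lower was 9, and 6 to 10 in the 11 alternatives. Leaving out 1 array at a time gave 1 to 3 called higher (1 without STZ, SD array 5) and 5 to 10 called lower (5 without STZ, SD array 2). In STZ, BEZ against STZ, SD, 0 were called in either direction in every alternative and with each array left out. In STZ, BEZ against Con, SD, 2 were called higher, and 1 without Con, SD arrays 1, 3 and 4 or with the covariate; 7 were called lower, and 5 to 8 in the alternatives. With 1 array left out these were 2 and 2 to 7: 2 without STZ, BEZ array 2, and 4 without STZ, BEZ array 5 or Con, SD arrays 2, 5 or 7. The cause was not tested. Ube2v1, Ube2l3, Ube2e3, Ube2n, Ube2o and Ube2s kept their call in STZ, SD against Con, SD in all 11 alternatives and with each array left out, though with probe sets averaged the differences of Ube2v1 (-0.31) and Ube2l3 (-0.19) were smaller by over 1.5 times; no called gene changed direction. Deviations of arrays with the same replicate number correlated at -0.24 to 0.08, so that no shared signal was seen. Whether the numbers paired the mice cannot be settled from these values. With the replicate block, 2 were called higher and 8 lower in STZ, SD against Con, SD, 0 and 0 in STZ, BEZ against STZ, SD, and 2 and 5 in STZ, BEZ against Con, SD. A value near background has no known floor in these data, so that low values such as those of Ube2d2b are bounded only by their spread.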
